A study of Mus musculus with 5 samples.

Results

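Nonclassical monocytes are described here in 5 single-cell libraries of mouse lung immune cells. They were chosen by measured UMIs (unique molecular identifiers, each counting 1 captured transcript), as the barcodes that held 1 or more of Ace, 1 or more of Treml4 and Adgre4 together and 1 or more of Spn and Pou2f2 together, with none of Car4, Cd3e, Cd79a or Cdh5 and at most 2 of C1qa, C1qb and C1qc summed. In all, 633 of the 44772 cells kept met this gate, which is 1.41%, and 521 of them (82.3%) came from the sham and day 3 libraries. The gate used measured values, so the levels of its own genes and the share of cells it finds describe the rule and are given without a test.

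All mice carried the alleles Ms4a3-CreER and R26-tdT. Ms4a3 is a gene of granulocyte and monocyte progenitors, and its promoter drives a tamoxifen-dependent Cre that switches on the tdTomato reporter in these progenitors and in the cells they give rise to. The lines were kept on a mixed genetic background and the study used adults of both sexes, and the sex of the mice behind each library is not given in the sources used here. The mice received tamoxifen before injury, so a cell born from progenitors that had not recombined carries no reporter. One library was made from lungs given PBS (sham), and the other 4 from lungs taken 3, 7, 14 or 28 days after bleomycin, a DNA-breaking drug given through the trachea that causes inflammation followed by fibrosis. With 1 library per time point and no stated number of mice in a library, time points could not be tested against each other. Intervals (95%) on shares, levels and ratios cover counting error only.

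Nonclassical monocytes are the Ly6C-low monocytes of mice. They patrol the inner surface of small blood vessels, take up debris there, and arise from classical Ly6C-high monocytes under the control of the nuclear receptor Nr4a1. Classical monocytes depend on the chemokine receptor Ccr2 to leave the bone marrow and enter inflamed tissue, where they can become macrophages. The lungs were perfused through the right ventricle before digestion, so cells that adhere to vessels can remain, and position inside or outside the vessel was not recorded.

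The gate selected 146 cells in sham (1.58% of 9238 cells, interval 1.34% to 1.86%) and 375 at day 3 (4.69% of 8004, interval 4.23% to 5.17%). The day 7 library held 36 such cells (0.379%, interval 0.266% to 0.525%). Day 14 held 39 (0.503%, interval 0.358% to 0.687%) and day 28 held 37 (0.360%, interval 0.254% to 0.496%). The share was thus highest at day 3, at 2.96 times the sham share, and the later 3 libraries lay below sham with intervals that overlap each other. With any 2 of the 3 positive criteria in place of all 3, the day 28 share (2.16%) did not lie below that of sham (2.09%). The higher share at day 3 was made up of cells that held Ly6c2, the Ly6C gene described below. Gated cells without a Ly6c2 UMI were 127 of 9238 in sham and 58 of 8004 at day 3, a lower share at day 3. B cells as deposited held a Ly6c2 UMI in 0.824% of cells in sham and 36.9% at day 3, and the gated cells of day 3 were deeper. The part of such background and of depth in this split was not tested. All values here are shares of the cells captured, so a change in other cell types alters them as well. A gate on single UMIs also finds more cells where cells are deeper, and the median UMI count of the selected cells was 5456.5 in sham, 8817, 6063 and 5512 in the next 3 libraries and 12363 at day 28. When every cell was first thinned to 3000 UMIs, the share was 1.75% in sham and 3.46% at day 3, so the difference of 3.10 percentage points became 1.71 (interval 1.20 to 2.23).

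Classical monocytes were gated in the same libraries by 1 or more UMIs of each of Ly6c2, Ccr2, Lyz2 and Csf1r, with Ace, Treml4, Adgre4 and genes of other lineages at 0. That gate found 35 cells in sham, 168, 68 and 6 cells in the next 3 libraries and 1 cell in the last. Nonclassical cells made up 80.7% of the gated monocytes in sham (interval 74.1% to 86.1%) and 69.1% at day 3 (interval 65.0% to 72.9%). Their share was 34.6% in the day 7 library (25.6% to 44.6%), 86.7% in that of day 14 (73.2% to 94.9%) and 97.4% in that of day 28 (86.2% to 99.9%). The day 28 share rests on 1 classical cell, and the cells gated as nonclassical there go against that label, as described below. When every cell was first thinned to 3000 UMIs, the shares in sham and at day 3 were 78.6% and 52.6%. The difference between these 2 libraries then went from -11.6 to -25.98 percentage points. Both classes were more frequent at day 3 than in sham, the classical class by 5.54 times. Day 7 was the only library in which classical cells outnumbered nonclassical ones. That library lists no barcode under 4624 UMIs, and in sham the median was 5456.5 UMIs in nonclassical and 9872 in classical cells. The effect of such a floor on the nonclassical share of gated monocytes was not tested. The classical gate requires Ly6c2, and the share of cells that held this gene differed between libraries in other classes too. In cells thinned to 3000 UMIs, B cells held it in 0.585% in sham and 25.9% at day 3. T cells held it in 20% in sham and 0.298% at day 14. The part of this in the classical counts and in the shares above was not tested. Neither gate includes every monocyte. At day 3, 90 cells missed the nonclassical gate only for lack of Treml4 and Adgre4, against 14 in sham, and 120 sham cells missed it only because they held Car4, against 52 at day 3.

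**Figure D1:**
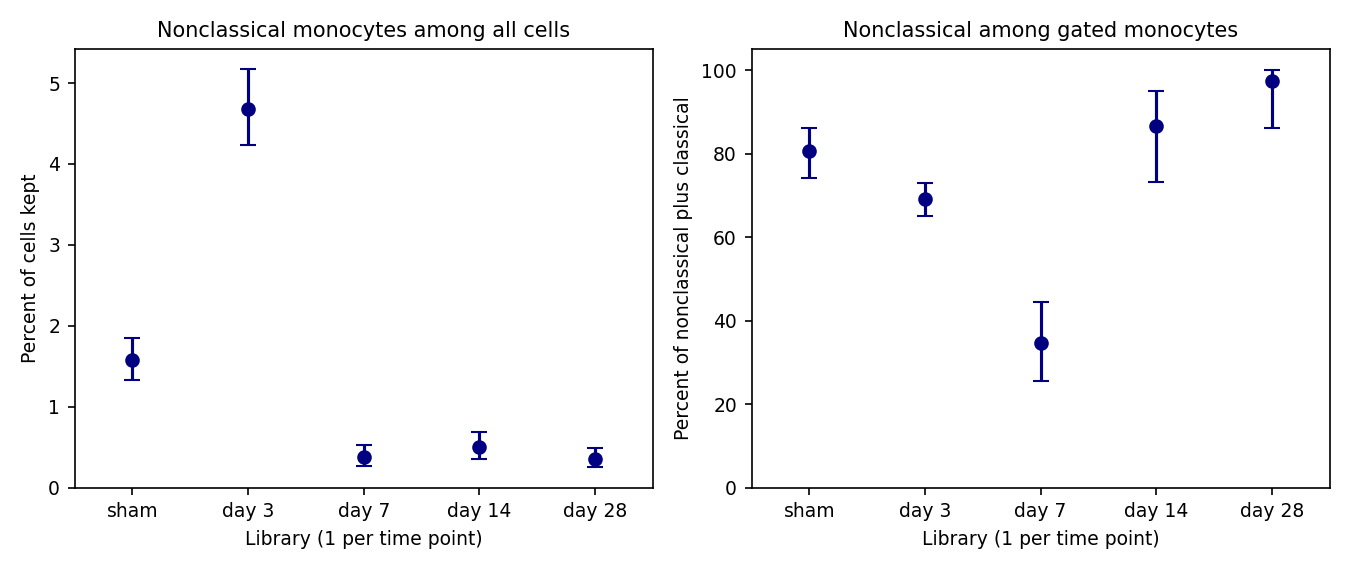
Points show the percent of cells kept that met the nonclassical gate (left) and the percent of gated monocytes that were nonclassical (right) in each library, with exact 95% binomial intervals as bars. The left panel peaks at 4.69% at day 3, and the right panel has its lowest value, 34.6%, at day 7. The day 7 library lists no barcode under 4624 UMIs, and the right panel at day 28 rests on 1 classical cell.

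The rule fixes that the genes of the gate are present, so their levels are given as a description. Ace, which encodes angiotensin-converting enzyme (chromosome 11, 105967945 to 105989964, plus strand, GRCm38), stood at 778, 596, 524, 681 and 257 CPM (UMIs of the gene per 1000000 UMIs of the gated cells) from sham to day 28. Treml4, an innate receptor that binds dying cells (chromosome 17, 48264295 to 48275360), stood at 468, 309, 170, 253 and 92.5 in the same order. Adgre4, an adhesion G protein-coupled receptor of myeloid cells, stood at 477, 291, 303, 542 and 141. Day 28 had the lowest value of each. Of the cells at the edge of the gate, 18 of 146 sham cells and 44 of 375 day 3 cells held a single Ace UMI, while the median was 4 Ace UMIs in sham, 5 at day 3 and 2 at day 28.

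A list of 20 markers of nonclassical monocytes outside the gate was used to check the name. All 20 were detected in each of the 5 libraries, and their summed level was 17525, 15590, 12763, 13973 and 7757 CPM from sham to day 28, against 5728 in all other cells of sham and 4680 in those of day 3. Nr4a1, the receptor these cells need to form, stood at 1452, 1292, 1706, 1230 and 317 CPM across the 5 libraries. Cx3cr1, the receptor for the chemokine that endothelial cells display, stood at 460, 200, 277, 289 and 58.5. Markers of B and T cells were low and not absent. The 10 B cell markers summed to 175.6 CPM in sham, with 6 of them at 0 UMIs, among them Ms4a1 besides Cd79a, which the gate excludes. At day 3 they summed to 199.97 CPM, led by Ighm at 149, and Cd79a was the only one at 0. The 10 T cell markers summed to 16.1 CPM in sham, 59.6 at day 3 and 169.9 at day 7, where Trbc1 led at 62.8. The 10 NK cell markers summed to 22.5 CPM in sham with 6 detected and to 472 at day 3 with all 10 detected, led by Ccl5 at 287 and the granzyme gene Gzma at 94.4. They summed to 384 at day 7, 377 of it Ccl5, against 390, 2475 and 490 in all other cells of sham, day 3 and day 7.

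The cells selected at day 28 stood apart from the rest. Their 12 alveolar macrophage markers summed to 11595 CPM, against 2396, 1635, 2024 and 2644 in the libraries before it, and Chil3, a chitinase-like protein of alveolar macrophages, accounted for 8334 of that. Spp1, which encodes osteopontin, stood at 7851 at day 28 and 98.5 in sham, Ctsd, which encodes cathepsin D, at 9110 and 680, and Lpl, which encodes lipoprotein lipase, at 4323 and 304. The data of day 28 therefore go against its label as a pure set of nonclassical monocytes. Below, day 28 enters only in values listed by time point, in the reporter shares and in the share of gated cells across settings. At day 7 the neutrophil markers summed to 2833 CPM, against 746 in sham and 1092 at day 3, led by S100a9.

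**Figure D2:**
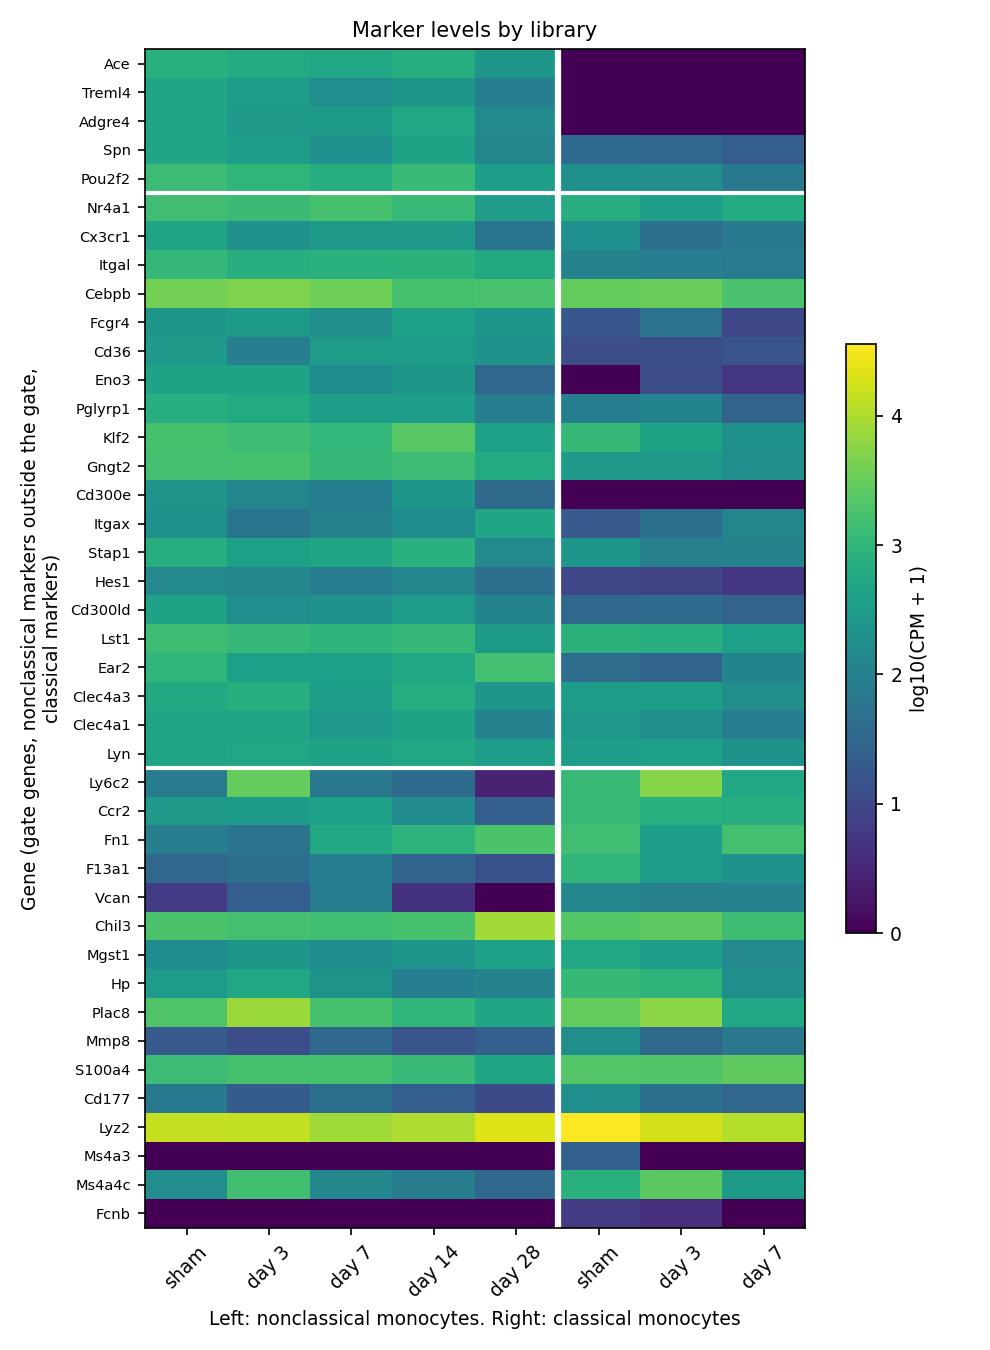
Colour gives log10(CPM + 1) for the gate genes (top block), the 20 nonclassical markers outside the gate (middle block) and classical markers (bottom block) in nonclassical monocytes of the 5 libraries and classical monocytes of sham, day 3 and day 7. Cd300e is at 0 in the classical columns, and Ly6c2 is bright at day 3 among the nonclassical columns.

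To ask which genes set nonclassical monocytes apart from classical ones, UMIs were summed per class in the 3 libraries with at least 20 cells of each (sham, day 3 and day 7) and compared within library by edgeR's quasi-likelihood test with Benjamini-Hochberg adjustment over 6702 genes. It called 385 genes higher in nonclassical cells (5.74% of those tested) and 300 lower (4.48%), at an adjusted p under 0.05, and the median log2 difference over all genes tested was -0.02. Of these, 384 and 286 moved the same way in all 3 libraries. The libraries differ in time as well as in mice, so the spread the test uses includes the course of injury. The counts depend on it: 59 genes were higher and 7 lower without library as a block, 226 and 139 by DESeq2, and 607 and 587 without the sham library, while without day 3 there were 261 higher and 146 lower.

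Of the 20 nonclassical markers outside the gate, 17 were higher in nonclassical cells and none was lower. Over all genes tested, 5.74% were higher and 4.48% lower. The median log2 difference of the 20 was 2.14. The list was chosen as marks of these cells with earlier results of these data known, so the count is a check of the label and not independent evidence. Cd300e, an activating immune receptor (chromosome 11, 115051917 to 115062177, minus strand), stood at 230 CPM in sham, 120 at day 3 and 92.3 at day 7 in nonclassical cells and had 0 UMIs in the classical cells of all 3 libraries. Set against 3 counts over the summed classical libraries, it was at least 137-fold higher. Eno3, the muscle form of the glycolytic enzyme enolase, stood at 418, 432 and 166 CPM in nonclassical cells and at 0, 10.8 and 4.32 in classical cells, a log2 difference of 5.58 ± 0.37 (SE, edgeR adjusted p = 3.7e-05). These groups do not overlap for either gene.

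Adhesion genes were among those higher in nonclassical cells, with 7 of the 21 measured members of the list higher and 1 lower. Over all genes tested, 5.74% were higher and 4.48% lower. Itgal, the alpha chain of the integrin LFA-1 with which these cells crawl along endothelium, stood at 1084, 745 and 820 CPM in nonclassical cells and 107, 88.6 and 77.7 in classical cells (log2 difference 3.18 ± 0.20, edgeR adjusted p = 3.7e-05). S1pr5, a sphingosine 1-phosphate receptor needed for nonclassical monocytes to leave the bone marrow, was higher by 4.93 ± 0.49 on the log2 scale (edgeR adjusted p = 0.00028). Itga4, Itgb1, Itgb2, Adgre5 and Cxcr4 were the others that were higher, and Thbs1, which encodes the matrix protein thrombospondin-1, was the lower member (log2 difference -1.31 ± 0.27).

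Chemokine genes ran the other way. Of 20 measured ligands and receptors, 9 were lower in nonclassical cells and 2, Cx3cr1 and Cxcr4, were higher. Of all genes tested, 4.48% were lower and 5.74% higher. The ligands Ccl7 (log2 difference -4.58 ± 0.48), Ccl12 (-4.49 ± 0.35) and Ccl2 (-3.74 ± 0.27), all of which draw in cells that carry Ccr2, had the lowest values. Ccr1 (-3.11 ± 0.23) and the interferon-induced ligand Cxcl9 (-3.17 ± 0.50) were lower too. Cxcl9 had 0 UMIs in the nonclassical cells of sham and day 7, and it was not called by DESeq2 (log2 difference -5.07, adjusted p = 0.14) or by edgeR without library as a block (-2.70, adjusted p = 0.35). AA467197 (-3.68 ± 0.24), the adaptor Scimp (-3.24 ± 0.26), Olfm1 (-3.09 ± 0.23) and C3ar1, the receptor for the complement fragment C3a (-3.07 ± 0.35), complete the largest differences in that direction together with F13a1 below. Without library as a block, Ccl7, Ccl12, AA467197, Scimp, C3ar1 and F13a1 missed the threshold as well. Their log2 differences then lay between -4.27 for Ccl7 and -3.10 for Scimp. Ccl2, Ccr1 and Olfm1 passed it in that setting.

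Receptors and lipid genes split by member. Fcgr4, a low-affinity activating receptor for IgG, stood at 254, 303 and 188 CPM in nonclassical cells and 16.5, 48.6 and 8.64 in classical cells (log2 difference 3.20 ± 0.30, edgeR adjusted p = 0.00023), while Fcgr1, the high-affinity receptor, was lower (-1.51 ± 0.25, edgeR adjusted p = 0.0044) and so was Fcgr3 (-0.74 ± 0.19). Of 24 measured members of the Fc receptor and signalling list, 5 were higher and 4 lower, against 5.74% and 4.48% of all genes tested. Of 26 lipid handling genes, 6 were higher and 2 lower, against the same shares. Among them, the fatty acid transporter Cd36 (3.74 ± 0.31), the fatty acid binding protein Fabp4 (3.24 ± 0.24) and the nuclear receptor Pparg (2.19 ± 0.45) were higher, and the scavenger receptor Msr1 was lower (-1.43 ± 0.22). Other large differences were those of the ion transporter Slc12a2 (5.44 ± 0.48), the Notch target Hes1 (4.02 ± 0.27), the cell adhesion molecule Ceacam1 (3.37 ± 0.23) and the ribonuclease Ear2 (3.18 ± 0.43). Slc12a2, Fcgr4 and Ear2 missed the threshold without library as a block, at log2 differences of 5.73, 3.12 and 3.18. Cd36, Fabp4, Hes1 and Ceacam1 passed it there. Cd36, Fabp4 and Ear2 are also abundant in alveolar macrophages. The other cells of sham held Cd36 at 400 and Ear2 at 942 CPM, against 10.98 and 41.2 in the classical cells of that library, and the part of such RNA in the difference was not tested.

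Of 33 transcription factors measured, 6 were higher and 3 lower, against 5.74% and 4.48% of all genes tested. Nr4a1 (1.36 ± 0.21), the NF-kappaB subunits Rel (1.36 ± 0.20) and Nfkb1 (0.79 ± 0.20), Klf2 (1.48 ± 0.31), Irf1 and Stat3 were higher, and Cebpa (-1.28 ± 0.21) and Maf (-1.04 ± 0.25) were among the lower. Bcl2, which keeps these monocytes alive, was higher by 1.84 ± 0.35 (edgeR adjusted p = 0.0088), and so were the death-promoting p53 targets Bbc3 (1.69 ± 0.34) and Pmaip1 (1.34 ± 0.23). Of 12 classical monocyte markers measured outside the classical gate, 6 were lower and none was higher, against 4.48% and 5.74% of all genes tested. Fn1, which encodes fibronectin, stood at 86.7, 54.5 and 558 CPM in nonclassical cells and 1409, 340 and 1614 in classical cells (log2 difference -2.78 ± 0.40, edgeR adjusted p = 0.0021). The clotting factor gene F13a1 stood at 34.3, 45.7 and 88.6 against 953, 325 and 210 (-3.14 ± 0.51, edgeR adjusted p = 0.0038). Plac8 stood at 2012, 7386 and 1706 against 3040, 5776 and 544 and did not pass the test (0.37 ± 0.35, edgeR adjusted p = 0.56), since it was lower than in classical cells in sham and higher at days 3 and 7. Ms4a3, whose promoter drives the Cre, had 0 UMIs in the nonclassical cells of every library, which at day 3 allows up to 0.908 CPM by a limit of 3 counts.

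The question for day 3 against sham is how the same gate differs in the inflamed lung. A total of 1818 genes reached 100 CPM in sham or day 3. Taking 2-fold as the limit, 158 of them were higher at day 3 (8.69%) and 50 were lower (2.75%), and the median log2 ratio over all of them was -0.04. Classical monocytes of the same libraries had 234 of 1735 genes higher by that limit (13.5%) and 78 lower (4.5%). These counts compare 2 libraries and not 2 conditions. The lower genes depend on the settings. There were 115 of them with a floor of 50 CPM, and 79 without the cells that held Ly6c2, of which 19 were among the 50.

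Interferon-stimulated genes gave 45 of the 158 higher genes. Type I interferon signals through a complex that holds Stat2 and Irf9 and binds a repeat of GAAA in the promoters of antiviral genes. Of 49 members of the list at 100 or more CPM, 45 were at least 2-fold higher at day 3 and none at least 2-fold lower. Over all 1818 genes, 8.69% were higher and 2.75% lower by that limit. The median log2 ratio of the 49 was 2.96. The 63 listed genes in the files summed to 10288, 37415, 8627, 6679 and 3317 CPM from sham to day 28, so the sum was high at day 3 and below the sham value afterwards. The same 49 genes had a median of 2.59 in classical monocytes and 4.90 in all other cells of these libraries. A difference was thus also measured outside nonclassical monocytes. The value for other cells pools cell types whose numbers differed, such as alveolar macrophages (3641 gated in sham, 254 at day 3). It was not split by type. Transcripts set free by other cells add to droplets, and the part of such RNA in these ratios was not tested.

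Ifit2, an interferon-induced protein that binds RNA (chromosome 19, 34550694 to 34576419, plus strand), had 1 UMI in sham and 696 at day 3, or 1.07 and 211 CPM, a log2 ratio of 7.62 (interval 5.14 to 12.93). Ifit3, its neighbour on the chromosome, stood at 4.28, 515, 3.69, 3.66 and 0 CPM from sham to day 28. The transcription factor Irf7, which amplifies interferon production, stood at 68.5, 2254, 92.3, 132 and 5.66, and the ubiquitin-like protein gene Isg15 at 34.3, 888, 55.4, 0 and 1.89. The membrane protein Bst2, which tethers virus particles, stood at 75.0 in sham and 961 at day 3. For each of these, day 3 was the high library and the other 4 were low. The largest increases besides Ifit2 and Ifit3 were those of Gm10709, Cxcl10, Oas1g, Slfn4, Ly6a, Phf11d, Pydc4 and Cfb, with log2 ratios between 5.30 for Cfb, which encodes complement factor B, and 7.26 for Gm10709. Cxcl10, a ligand that draws in activated T cells, stood at 283 CPM at day 3, but 64.1% of its 934 UMIs were in 5 of the 375 cells. A further 4 listed genes were less than 2-fold higher, namely Ly6e, Samhd1, Ifitm2 and Ifitm6, which stood at 1775, 871, 1396 and 443 CPM in sham already.

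The promoters of the largest increases were searched for a form of this repeat. Windows run from 250 bases before to 50 bases after each gene's start (RefSeq, GRCm38.p6), and the repeat searched was GAAANNGAAA on both strands, where N is any base and the reverse strand reads TTTCNNTTTC. It occurred in 1131 of 32851 such windows (3.44%), and in 88 of the 1396 genes compared here that had a window (6.30%). Of the 10 largest increases, 6 had a window and 3 of these held the repeat while the others did not. The 3 that held it are printed to show it, 5′ to 3′ along the gene, with the repeat in capitals. For Ifit3 it occurs 2 times (chr19:34583279-34583578, plus strand), for Cxcl10 once (chr5:92348840-92349139, minus strand) and for Oas1g 2 times with an overlap (chr5:120887564-120887863, minus strand). Windows were at hand for 1396 of the 1818 genes compared, 6 of the 10 largest increases and 48 of the 63 listed interferon genes. The counts above therefore hold only for genes with a window, and no share is drawn over the interferon list. A match is a description of the letters and not of binding.
Ifit3: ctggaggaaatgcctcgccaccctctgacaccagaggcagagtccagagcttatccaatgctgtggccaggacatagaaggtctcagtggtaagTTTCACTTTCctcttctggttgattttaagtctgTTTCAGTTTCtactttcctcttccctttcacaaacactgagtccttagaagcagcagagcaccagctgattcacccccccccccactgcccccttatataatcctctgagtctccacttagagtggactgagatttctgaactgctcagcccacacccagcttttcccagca
Cxcl10: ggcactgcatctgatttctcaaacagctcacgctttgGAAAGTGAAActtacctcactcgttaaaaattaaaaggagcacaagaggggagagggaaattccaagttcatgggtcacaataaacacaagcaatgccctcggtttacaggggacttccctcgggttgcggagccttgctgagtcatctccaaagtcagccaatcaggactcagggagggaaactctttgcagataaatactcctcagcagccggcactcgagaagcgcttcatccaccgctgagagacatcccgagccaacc
Oas1g: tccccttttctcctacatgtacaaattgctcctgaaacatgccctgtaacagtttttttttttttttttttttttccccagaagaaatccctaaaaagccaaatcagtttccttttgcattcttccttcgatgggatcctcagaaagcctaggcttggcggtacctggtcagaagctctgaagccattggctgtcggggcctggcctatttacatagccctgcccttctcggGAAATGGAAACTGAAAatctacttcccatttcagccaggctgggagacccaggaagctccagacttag

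**Figure D3:**
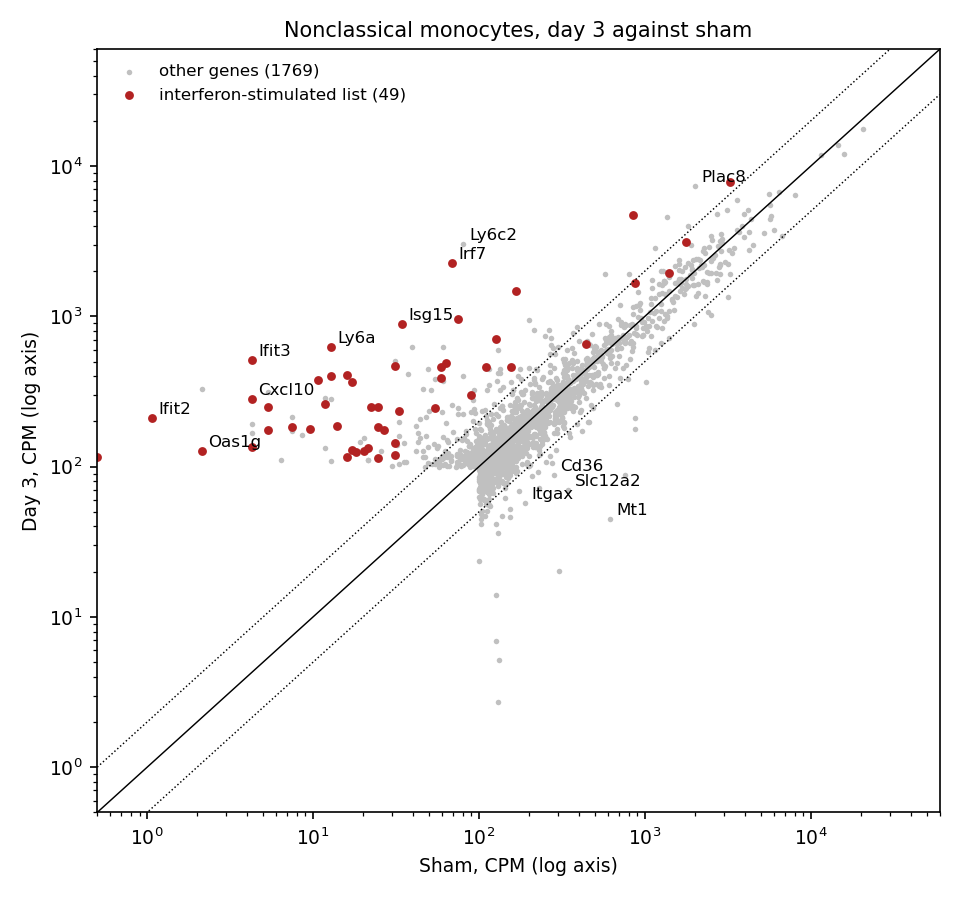
Each point is 1 of the 1818 genes at 100 or more CPM in sham (x axis) or day 3 (y axis) nonclassical monocytes, on log axes, with the 49 interferon-stimulated genes in red, the diagonal as a line and 2-fold limits dotted; a gene with 0 UMIs in sham is drawn on the left edge. The red points lie above the diagonal, 45 of them past the upper dotted line, and Ly6c2 lies at 80.3 and 3015.

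Genes of MHC class I presentation were higher with them. Of 17 measured, 11 were at least 2-fold higher at day 3 (8.69% of all genes) and none at least 2-fold lower (2.75% of all genes). Their median log2 ratio was 1.12, against 1.31 for the same genes in classical monocytes and 2.32 in all other cells. H2-K1, a classical class I heavy chain, stood at 1834 CPM in sham, at 3987 on day 3 and at 1237, 1523 and 1643 in the later libraries. The peptide transporter Tap1 stood at 89.9 in sham and 302 at day 3, and the immunoproteasome subunit Psmb8 at 392 and 851. MHC class II genes had other values by level, with none of 8 at least 2-fold higher, 1 at least 2-fold lower and a median of -0.54, against 1.83 for the same genes in classical cells. That level rests on few cells: of the H2-Eb1 UMIs in sham, 76.7% were in 5 of 146 cells, and of those at day 3, 37.5% were in 5 of 375. Shares of cells ran the other way. An H2-Eb1 UMI was held by 26 of 146 cells in sham and 131 of 375 at day 3. In cells thinned to 3000 UMIs, H2-Ab1, a further class II chain, was held by 15% of nonclassical cells in sham (interval 9.53% to 22.01%) and 29.97% at day 3 (25.3% to 35.0%), while T cells held it in 3.89% and 15.6%. Its level was 1044 CPM in sham and 577 at day 3, so no direction is read for these genes.

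Ly6c2, the gene by which classical monocytes are usually told apart, was high in the nonclassical gate at day 3. Its level was 80.3 CPM in sham, 3015 at day 3, and 66.5, 40.3 and 1.89 in the libraries that follow. In cells thinned to 3000 UMIs, 8.57% of nonclassical cells held it in sham (interval 4.51% to 14.5%, 140 cells) and 83.5% at day 3 (79.2% to 87.2%, 357 cells). The shares at days 7, 14 and 28 were 11.1%, 8.57% and 2.86%. At day 3 B cells, used here as a background for the gene, held it in 25.9% of cells and alveolar macrophages in 19.3%, against 0.585% and 0.733% in sham. Whether those UMIs were made by the cells or were free RNA in their droplets was not tested. The median depth of those B cells was 5775.5 UMIs and that of the nonclassical cells 8817. C1q macrophages, gated by 10 or more UMIs of C1qa, C1qb and C1qc together, held it in 0% of 33 cells in sham and 87.5% of 639 at day 3 (interval 84.7% to 89.9%), so the high share was not particular to nonclassical cells. The nonclassical share lay above those of B cells and alveolar macrophages at day 3, and the median nonclassical cell held 6 Ly6c2 UMIs of 3000. The median was 16.5 in classical cells, whose gate requires the gene, so their level is set in part by the rule. Ly6c2 and Ly6c1 are near-identical neighbours on chromosome 15 whose reads can be exchanged, and Ly6c1 stood at 7.50 in sham and 214 at day 3. T cells, of which some express Ly6c2, held it in 20%, 56.4%, 26.8%, 0.298% and 13.6% of cells from sham to day 28, so the day 14 library was low in that class too.

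Other classical markers did not all follow. Of 10 measured, 4 were at least 2-fold higher at day 3 and none at least 2-fold lower, against 8.69% and 2.75% of all genes. Besides Ly6c2, the 4 higher ones included Plac8 (2012 and 7386 CPM) and Ms4a4c (167 and 1487), and Ms4a4c is also on the interferon list. Ccr2 stood at 279 in sham and 308 at day 3, Fn1 at 86.7 and 54.5, F13a1 at 34.3 and 45.7 and Vcan at 5.35 and 22.1. Classical cells of day 3 held the last 3 of these at 340, 325 and 95.1, and Ccr2, which their gate requires, at 771. At day 3, 211 of the 375 cells (56.3%) held both Ly6c2 and Ccr2, against 14 of 146 (9.59%) in sham.

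The day 3 cells were then described by whether they held Ly6c2, a split made on the values themselves and therefore given without a test. After thinning, 59 cells held none and 298 held 1 or more. Cells without Ly6c2 had Treml4 at 610 CPM and cells with it at 290, and the values for Cd300e were 463 and 134, for Cd36 266 and 80.5, for Ccr2 96.0 and 303, and for Isg15 311 and 814. Irf7 was well above its sham level in both, at 1661 and 2291, against 54.7 in sham cells without Ly6c2. With all cells that held Ly6c2 left out of both libraries (58 cells left at day 3 and 127 in sham), 46 of the 49 interferon genes were at least 2-fold higher, with a median log2 ratio of 2.82.

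**Figure D4:**
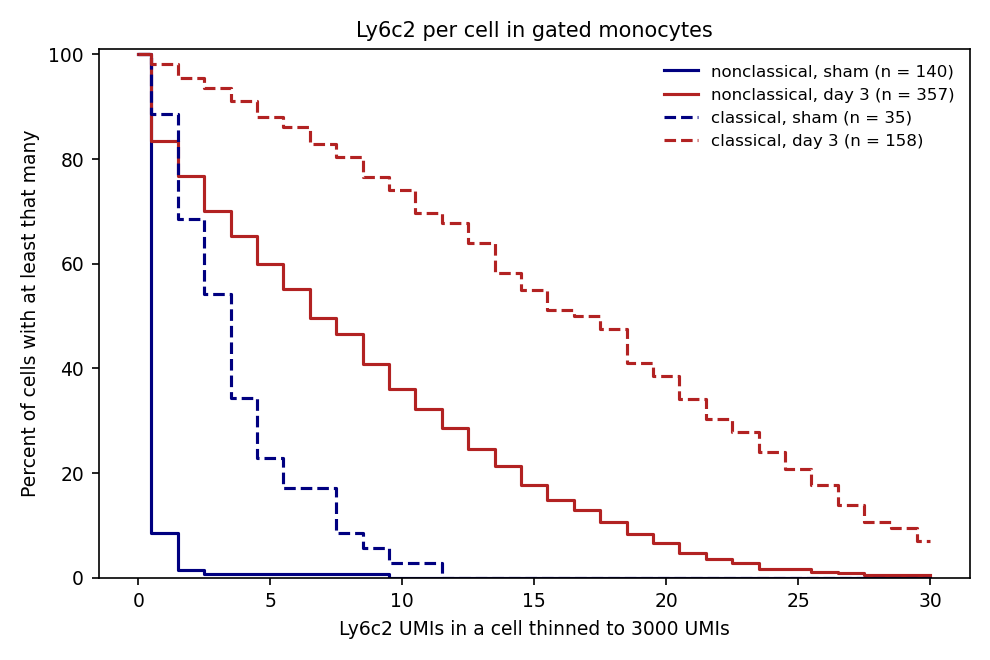
Lines give the percent of cells, thinned to 3000 UMIs, that held at least the number of Ly6c2 UMIs on the x axis, for nonclassical (solid) and classical (dashed) monocytes of sham (blue) and day 3 (red). At 1 UMI the nonclassical line is at 8.57% in sham and 83.5% at day 3. The classical gate requires Ly6c2, so the dashed lines start near 100% by construction.

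Some genes of nonclassical identity were lower at day 3. Of the 20 markers outside the gate, 5 were at least 2-fold lower, against 2.75% of all 1818 genes, and none was at least 2-fold higher. The median log2 ratio of the 20 was -0.26. The 5 were Cx3cr1 (460 and 200 CPM), Cd36 (285 and 87.4), Itgax, an integrin chain (190 and 57.2), Cd300ld (419 and 173) and Ear2 (1011 and 368). The count depends on the cells that held Ly6c2. Without them, in a setting added after seeing the data, 1 of the 20 (Cx3cr1, log2 ratio -1.06) was at least 2-fold lower, 1 (Fcgr4, 1.61) was at least 2-fold higher, and the median was 0.19. Cd36 then stood at 328 in sham and 307 at day 3, a log2 ratio of -0.10, and Itgax, Cd300ld and Ear2 had ratios of -0.85, -0.42 and -0.83. In all other cells of these libraries Cd36, Itgax and Ear2 were lower at day 3 by 2.35, 2.03 and 2.23 on the log2 scale, while Cx3cr1 was higher there by 1.35 and Cd300ld by 0.34. Cd9, a tetraspanin, stood at 869 and 210, and in other cells it was lower by 2.16. Bcl2 stood at 230, 72.0, 70.2, 91.5 and 32.1 from sham to day 28, so sham was the high library, and it was higher by 1.96 in other cells at day 3. Cdkn1a, the p53 target that halts the cell cycle, stood at 372 and 777 (log2 ratio 1.06, interval 0.90 to 1.23), against 1.08 in classical cells and 1.20 in other cells.

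Several of the largest decreases rest on few cells. The metallothioneins Mt1 and Mt2 stood at 621 and 132 CPM in sham and 45.1 and 5.14 at day 3, but 5 of the 146 sham cells held 84.1% of the Mt1 and 92.7% of the Mt2 UMIs. Stmn1, a microtubule regulator of dividing cells, had 91.5% of its sham UMIs in 5 cells, Lpl 65.1% and the histone gene H2afx 69.1%. Plet1 and Ctsk are markers of alveolar macrophages, and 59.0% and 68.9% of their sham UMIs were in 5 cells. Scgb1a1, the secretory protein of club cells, stood at 755 and 88.3 with only 12.8% of its sham UMIs in 5 cells, and at 5124 and 840 in all other cells, and the part of free RNA in this decrease was not tested. The mitochondrial gene mt-Nd3, a subunit of respiratory complex I, was held by 140 of the 146 sham cells and stood at 876 and 178 CPM (log2 ratio -2.29, interval -2.45 to -2.14). Its log2 ratio was -1.73 in classical cells, -2.92 in C1q macrophages and -1.86 in all other cells, and the median mitochondrial share of nonclassical cells was 3.18% in sham and 1.91% at day 3. The part of RNA quality in this was not tested. Slc12a2, which moves sodium, potassium and chloride into cells, was spread over cells, with 102 of 146 sham cells holding it. Its level was 346 CPM in sham and 69.9 at day 3, then 166, 370 and 56.6, with a log2 ratio of -2.31 at day 3 (interval -2.56 to -2.06), against -0.43 in other cells. Without the cells that held Ly6c2, that ratio was -0.55.

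The remaining lists were mixed. None of 21 immediate early genes and none of 11 glycolysis genes was 2-fold higher or lower at day 3. Over all 1818 genes, 8.69% were higher and 2.75% lower, so no result is read from these counts in lists this short. In the chemokine list, 6 of 12 genes were at least 2-fold higher and 1, Cx3cr1, at least 2-fold lower, against 8.69% and 2.75% of all genes. Ccl5, a ligand made by activated lymphocytes and monocytes, stood at 11.8 and 287, with 63.5% of its 950 day 3 UMIs in 5 cells. It is also an NK cell marker, and on that list Gzma stood at 6.42 and 94.4 and Nkg7 at 1.07 and 43.3. The part of NK cell RNA in the Ccl5 difference was not tested. The activating receptor Fcgr1 stood at 37.5 and 414 (log2 ratio 3.47, interval 2.98 to 3.99), and Cd14, the co-receptor for bacterial lipopolysaccharide, at 273 and 718. Ms4a6d stood at 61.0 and 627. Of 12 cholesterol and lipid handling genes, 4 fell below the lower 2-fold limit and 1 passed the upper one. Of all genes, 2.75% and 8.69% did so, and the median log2 ratio of the 12 was -0.60. The higher one was Npc2, which exports cholesterol from lysosomes (576 and 1919), and the lower ones were Lpl, Cd36, Fabp4 (347 and 168) and Lipa, the lysosomal acid lipase (209.9 and 86.8).

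The reporter marks cells that descend from progenitors labelled before injury. The files hold an added feature named RFP, taken here as tdTomato. In cells thinned to 3000 UMIs, 75.0% of nonclassical cells held a reporter UMI in sham (interval 67.0% to 81.9%) and 90.8% at day 3 (interval 87.3% to 93.6%). In the later libraries the share was 38.9% (23.1% to 56.5%), 48.6% (31.4% to 66.0%) and 25.7% (12.5% to 43.3%). B cells, which do not derive from Ms4a3 progenitors, held it in 18.4%, 11.9%, 20.6%, 42.4% and 14.7%, and T cells in 24.2%, 15.4%, 26.5%, 47.0% and 27.4%. Sham and day 3 lay far above that background, while the intervals at days 7, 14 and 28 overlapped the background of B or T cells at this limit. At 3 or more UMIs the nonclassical shares were 54.3%, 72.5%, 13.9%, 17.1% and 14.3%, and those of B cells 1.75%, 0.660%, 2.75%, 8.08% and 1.34%. The share in classical monocytes was 80.0% in sham, 85.4% at day 3 and 29.4% at day 7. In cells as deposited, the nonclassical shares were 82.2%, 94.9%, 55.6%, 71.8% and 48.6%.

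**Figure D5:**
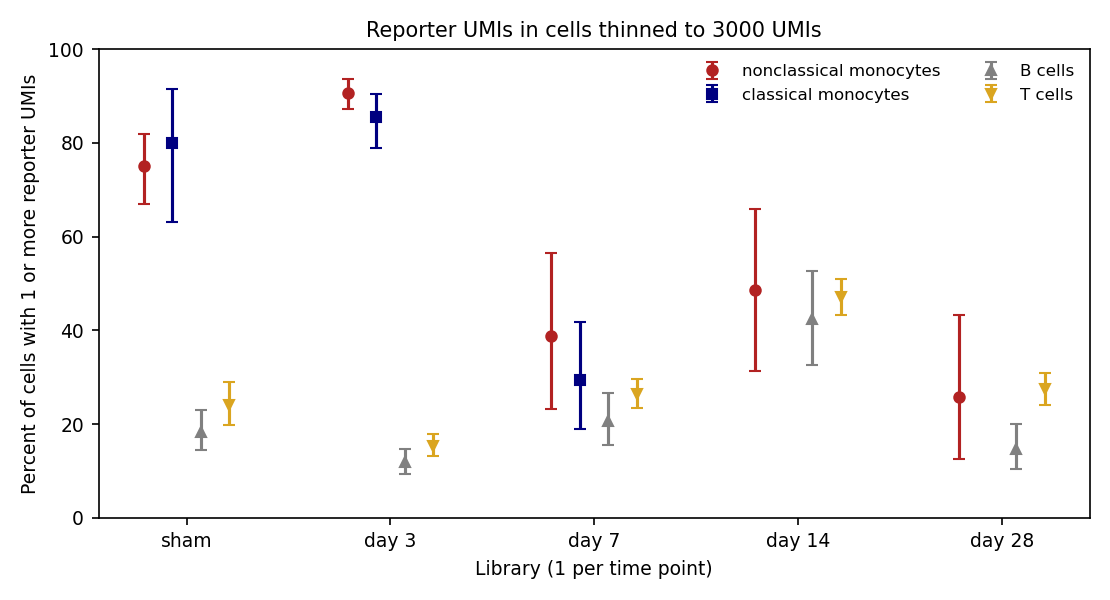
Points give the percent of cells, thinned to 3000 UMIs, with 1 or more reporter UMIs in each library for nonclassical and classical monocytes, B cells and T cells, with exact 95% binomial intervals; classes with under 20 cells are not drawn. Nonclassical monocytes reach 75.0% in sham and 90.8% at day 3, above the lymphocytes, and lie near them at days 14 and 28.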

How the data were processed

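Each library was made from digested lung cells with the 10x Genomics 3′ kit, and the authors aligned the reads to mm10 and counted UMIs with Cell Ranger 6.0.0, as their methods state, although the headers of the deposited matrices name version 3.1.0. The values deposited are raw UMI counts for 28693 features per barcode, with no normalization. The 5 libraries hold 52800 barcodes and 89769386 to 167506186 UMIs, and the day 7 library lists 10000 barcodes with none under 4624 UMIs. The filter stated by the study (300 to 8000 genes, 800 to 60000 UMIs, mitochondrial share below 15%) leaves 44772, more cells than the study analysed after its own doublet removal. No doublet caller was applied for the main values, and Scrublet (scanpy 1.11.5, the highest scores at 0.8% for each 1000 barcodes) was an alternative that marked 3 of the 146 sham and 24 of the 375 day 3 nonclassical cells. Pairs of libraries shared 16 to 31 barcodes, none of them among nonclassical cells.

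The gate of the members and all gene lists were chosen with earlier results of these data known. B cells, T cells and alveolar macrophages, which serve as background, were gated by UMIs of their own markers. Counts were summed per class and library and given as CPM (UMIs per 1000000), with exact Poisson intervals for levels and exact binomial intervals for ratios and shares. Nonclassical and classical sums were compared with edgeR 4.0.16 (TMM, filterByExpr, library as block, 3 libraries, 2 residual degrees of freedom), and genes of either gate were not tested. The study's test over single cells was not used, since cells are not replicates. Named genes are those of the gates and marker lists, the 10 largest differences in each direction (for the classes, past an adjusted p of 0.05, at 100 or more CPM and with 1 direction in every library; for day 3, with an interval that excludes 0), and up to 4 members of a list by level or change. Others named, such as S1pr5 and Cd9, were chosen after their values were seen. Gene positions are from GENCODE vM21 (GRCm38). Alternatives covered doublets, mitochondrial limit, gate, depth, tool, normalization, filter, block and libraries. Some listed genes enter the counts of their lists and are not reported here by name.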

Additional observations from a re-analysis of the deposited data

Results flagged for a closer look

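Genes that were at least 2-fold higher at day 3 than in sham in one monocyte class and at least 2-fold lower in the other, with both counting intervals away from 0, are listed because the classes moved in opposite directions in the same 2 libraries. With 1 library per time point, the difference between the classes was not tested. H2-Eb1, an MHC class II chain, had a log2 ratio of -1.045 in nonclassical and 3.775 in classical cells, and 76.7% of its nonclassical sham UMIs were in 5 cells. The nonclassical cells that held it were 26 of 146 in sham and 131 of 375 at day 3, so its level and its share of cells ran in opposite directions in this class. Itgax had -1.729 and 1.222. Ptms had -1.226 and 1.23, with 43.2% of its nonclassical sham UMIs in 5 cells. Trf, which encodes transferrin, had 1.269 in nonclassical and -1.36 in classical cells.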

How the results depend on the processing

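The share of nonclassical cells was higher at day 3 by 3.10 percentage points, and by 4.94 with any 2 of the 3 positive criteria and 1.71 after thinning. In the other 4 settings the difference stayed within the main interval. Nonclassical cells among gated monocytes differed at day 3 by -11.6 percentage points. After thinning this was -25.98, and in the other 2 settings it stayed within the main interval. For nonclassical against classical cells, genes higher and lower were 226 and 139 by DESeq2, 59 and 7 without library as a block, and 568 and 517 with no filter on low counts, which tests 14392 genes. Leaving out 1 library gave 261 to 607 higher and 146 to 587 lower. At least 40 cells per class leaves 1 library and could not be fitted. Of the 20 named genes, 10 missed the threshold without the block and Cxcl9 did so by DESeq2. The other settings kept both counts within 1.5 times. At day 3 against sham, 2-fold higher and lower genes were 217 and 115 with a floor of 50 CPM, 97 and 27 with a floor of 200, and 146 and 79 without cells that held Ly6c2 (added after seeing the data; 100 and 19 shared with the main counts). The reporter difference (15.8 percentage points) ranged from 12.7 to 18.3. The day 28 share lay below that of sham in 6 of the 7 settings and at 2.16% against 2.09% with any 2 of the 3 positive criteria. The tabled shares and the named gene differences (20 for the classes and 20 for day 3) kept their sign in the settings run for them, and other genes were not followed across settings, save that 6 of the 20 nonclassical markers outside the gate changed sign at day 3 without cells that held Ly6c2. H2afx at day 3 went under 2-fold after thinning (log2 -0.80) and with 2 or more Ace UMIs (-0.74). No paired analysis of time points was possible because each time point has 1 library. Depth limits the gate, which needs single UMIs, and the later libraries, in which 1 UMI over all nonclassical cells is 1.89 to 3.69 CPM.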

Other observations

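Ly6i, a further member of the Ly6 family, stood at 61.0 CPM in nonclassical cells and 8.24 in classical cells of sham, and at 465 and 175 at day 3, so it was the higher in nonclassical cells in both libraries. At day 7 the values were 22.2 and 23.03.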
